A study of Homo sapiens with 6 samples.

Results

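The enzymes that place and remove methyl and acetyl groups on DNA and histones were described across 6 RNA sequencing libraries of AGS, a cell line from a human gastric adenocarcinoma. The set holds 60 genes, chosen by symbol from the DNA methyltransferase, TET, lysine methyltransferase, arginine methyltransferase, acetyltransferase, demethylase and deacetylase families, of 60604 genes read. They divide into 35 writers with their core partners and 25 erasers. Indomethacin, an anti-inflammatory drug that blocks cyclooxygenases, was given at 0.5 mM for 24 h (3 libraries), and the controls had 0 mM (3 libraries, with no time given). No genetic change separates the groups. Whether the 3 libraries of a group are separate cultures is not stated, and the p-values below reflect the spread between libraries, technical or not.

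DNA methyltransferases add methyl groups to cytosine, with DNMT1 copying the pattern after replication and DNMT3A and DNMT3B setting new marks, while TET dioxygenases oxidise methylcytosine as a step towards its removal. Histone lysine methyltransferases act on particular residues: methylation of lysine 4 of histone H3 (H3K4) marks promoters and enhancers of active genes, and methylation of H3K9 and H3K27 marks silent chromatin. Acetyltransferases open chromatin by acetylating histone tails, and deacetylases and lysine demethylases reverse these marks. Several of these genes are mutated or misexpressed in gastric and other cancers.

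Total counts lay between 17535435 and 20094302 in the indomethacin libraries and between 20983189 and 23221077 in the control libraries, so that a gene with 3 counts lies at 0.129 to 0.171 CPM, the count scaled to the library size. The share of counts from mitochondrially encoded genes was 16.7 to 19.7% in the indomethacin libraries and 22.8 to 26.8% in the control libraries. As a check of the label, EPCAM and the keratins KRT8, KRT18 and KRT19, markers of epithelial cells, averaged 178, 1144, 850.1 and 589 CPM in indomethacin cells and 285, 1670.1, 719.8 and 637 CPM in control cells. CDH1, also on that list, stood far lower, at 17.8 CPM in indomethacin cells and 6.26 CPM in control cells. It was the 1 of these 5 markers called higher with indomethacin, and 2 were called lower. All 5 leukocyte and all 4 endothelial markers were below the filter on low counts, and of 5 fibroblast markers only COL1A1 passed it. Summed fibroblast markers stood at 1.21 to 1.71 TPM in the indomethacin libraries and 0.654 to 1.06 TPM in the control libraries. The 10 proliferation markers, among them MKI67, TOP2A and PCNA, were all lower in indomethacin cells, with a summed level of 91.7 to 114 TPM (transcript level per length) in the indomethacin libraries and 740 to 857 TPM in the control libraries. Bulk RNA cannot tell apart fewer cells of a kind and less RNA per cell, and the part of cycling cells in the results below was not tested.

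All 60 genes passed the filter on low counts, HDAC9 only through the indomethacin libraries, and 45 of them differed between the groups. In edgeR's quasi-likelihood test with Benjamini-Hochberg adjustment over all 17200 genes tested, 24 of the 60 were higher and 21 were lower in indomethacin cells at an adjusted p under 0.05. Over all genes tested, 30.6% were higher and 31.0% lower, either direction together 61.6%. Since most genes tested changed, these counts are a description, and the account below turns on which enzymes moved and how far. Their median log2 fold change was 0.08, against 0.04 over all genes tested. At a change of 2-fold or more, 9 were higher and 8 lower, against a background of 17.4% higher and 15.6% lower (33.0% in all). In 48 of the 60 genes the 3 indomethacin libraries did not overlap with the 3 control libraries, 27 of them higher and 21 lower, against 67.0% of all genes tested (33.7% higher and 33.3% lower). Writers counted 13 higher, 14 lower and 8 that did not pass, with a median of -0.02, and erasers counted 11 higher, 7 lower and 7 that did not pass, with a median of 0.21.

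**Figure D1:**
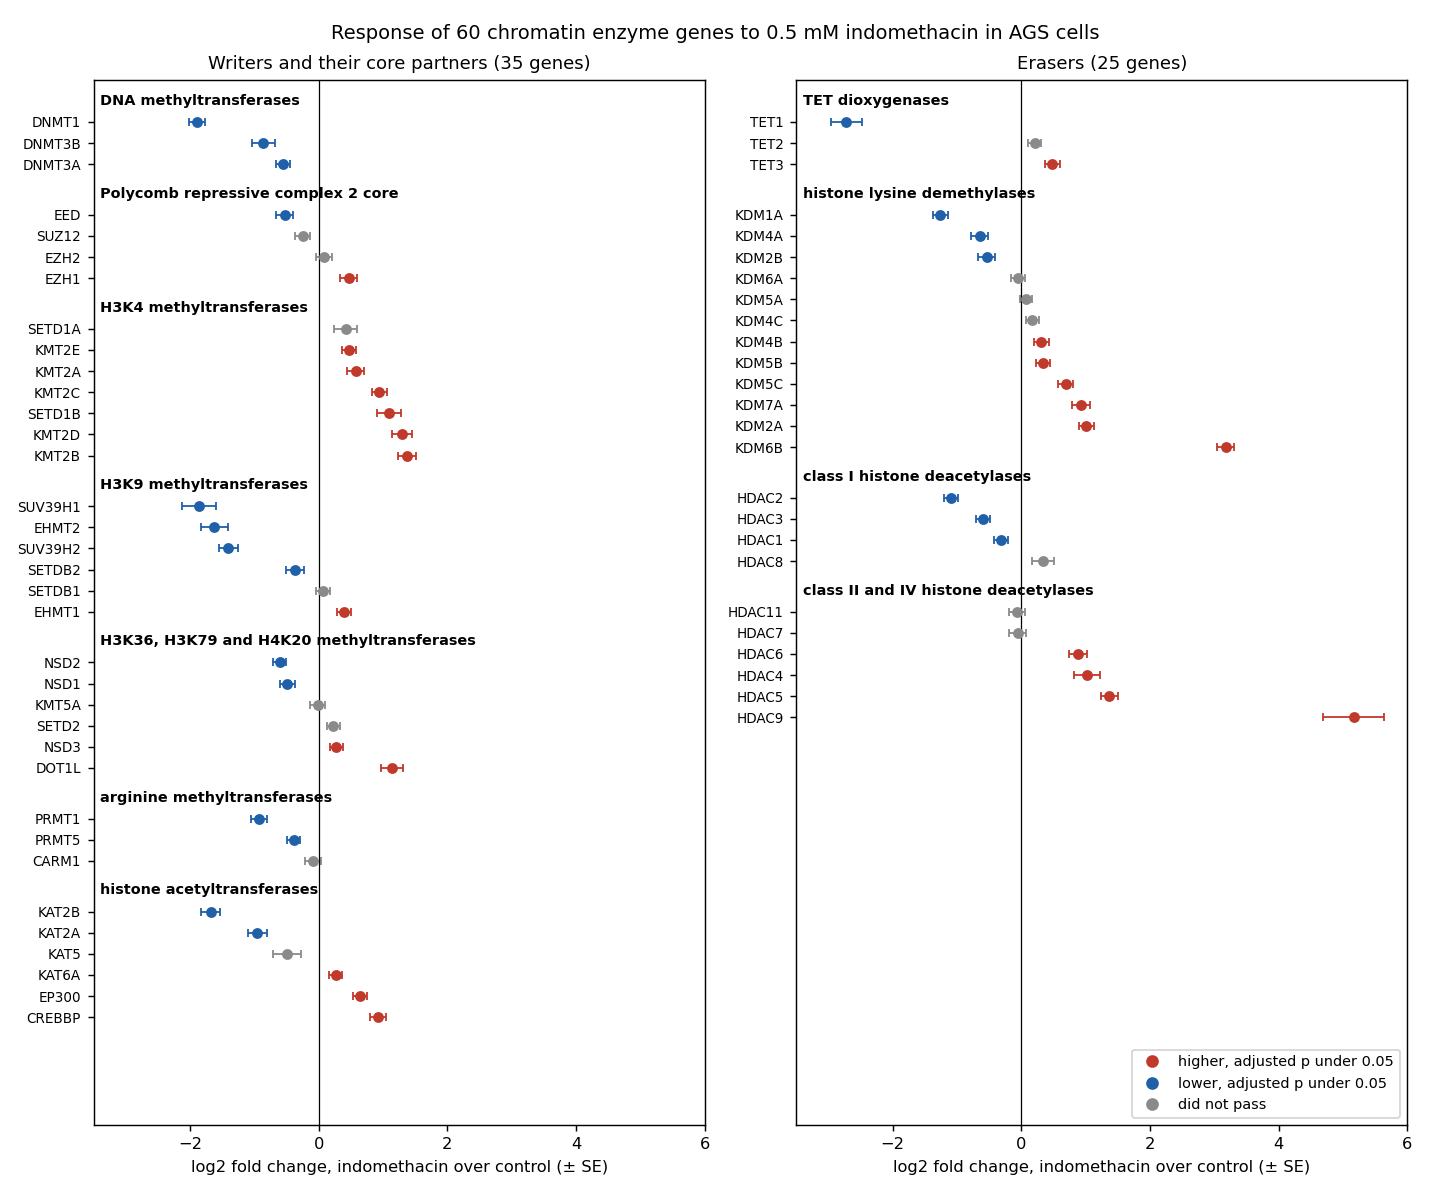
The log2 fold change of each of the 60 genes, indomethacin over control, with its standard error from the edgeR fit of 3 libraries a group, by enzyme class, writers on the left and erasers on the right. All 3 DNA methyltransferases lie left of 0, no H3K4 methyltransferase and no class II or IV deacetylase was called lower, and KDM6B and HDAC9 lie farthest to the right.

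The enzymes of DNA methylation were lower on the writing side. DNMT1 (ENSG00000130816, chr19:10133342-10231286 on hg38), the maintenance enzyme, had 25.8, 27.5 and 34.7 CPM in the indomethacin libraries and 102, 110.4 and 115 CPM in the control libraries. No indomethacin library came near the lowest control library, and the difference was a log2 fold change of -1.90 (SE 0.13, adjusted p = 2.09e-08). The de novo enzyme DNMT3A had 24.7, 24.6 and 23.9 CPM in indomethacin cells, against 32.5, 37.7 and 37.2 CPM in control cells (log2 fold change -0.55, SE 0.11, adjusted p = 0.000636). Its partner in de novo methylation, DNMT3B, had 11.5, 12.8 and 19.96 CPM in indomethacin cells, against 27.9, 24.7 and 27.3 CPM in control cells (log2 fold change -0.86, SE 0.18, adjusted p = 0.000785). In none of the 3 genes did the groups overlap, and indomethacin library 3 was the highest of its group for DNMT1 and DNMT3B. All 3 stayed lower in each alternative except the 2-fold rule, which only DNMT1 met.

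TET1 (ENSG00000138336, chr10:68560337-68694487), one of the dioxygenases that act on methylcytosine, had the lowest fold change of the 60 genes. Its level was 1.09, 1.44 and 1.08 CPM in the indomethacin libraries and 8.07, 9.11 and 6.74 CPM in the control libraries, from 70 counts in all with indomethacin and 523 without (log2 fold change -2.72, SE 0.23, adjusted p = 2.84e-07). TET3 went the other way. It had 56.2, 51.2 and 46.0 CPM in indomethacin cells and 32.8, 40.5 and 36.8 CPM in control cells (log2 fold change 0.48, SE 0.12, adjusted p = 0.00298). TET2, often mutated in blood cancers, averaged 88.9 ± 1.01 CPM in indomethacin cells and 77.1 ± 0.616 CPM in control cells (SD, n = 3 each). Its groups did not overlap, but the test gave an adjusted p of 0.0749 (log2 fold change 0.21). TET1 was the least abundant of the 3 per kilobase in both groups. The summed level of the family was 9.87 to 13.8 TPM in the indomethacin libraries and 11.2 to 12.9 TPM in the control libraries, and the groups overlapped. As TMM-scaled CPM per kilobase the same sum was 9.10 to 9.89 in the indomethacin libraries and 8.02 to 8.80 in the control libraries, without overlap, so its direction depends on the scale. The summed DNA methyltransferases stood at 8.17 to 8.996 TPM in the indomethacin libraries and 21.9 to 22.4 TPM in the control libraries. Their ratio to the TET genes, which needs no scaling between libraries, was 0.601, 0.671 and 0.912 in the indomethacin libraries and 1.87, 1.73 and 1.96 in the control libraries, with no overlap.

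The promoters of 4 genes are shown from RefSeq (build GRCh38.p14, 250 bases before to 50 after a listed transcription start, 5' to 3' on the gene's strand): DNMT1 and SUV39H2, which fell, EZH2, which did not pass the test, and KDM6B, which rose most among the erasers with ample counts. Capitals mark matches, on either strand, to motifs found at genes of the cell division programme: the E2F-type words (TTTCCCG, its variant TTTCGCG, its variant TTTGCCG and its variant TTTGGCG), the CCAAT box, and the cell cycle homology words (TTTGAA or else TTCGAA). Overlapping matches count separately, and none of those shown overlap. DNMT1 (chr19:10194904-10195203, minus strand) held 1 E2F-type word, SUV39H2 (chr10:14878616-14878915, plus strand) 1 cell cycle homology word, EZH2 (chr7:148884242-148884541, minus strand, the first of 2 listed starts) 1 E2F-type word and 4 CCAAT boxes, and KDM6B (chr17:7833967-7834266, plus strand, the first of 2 listed starts) no match.
DNMT1: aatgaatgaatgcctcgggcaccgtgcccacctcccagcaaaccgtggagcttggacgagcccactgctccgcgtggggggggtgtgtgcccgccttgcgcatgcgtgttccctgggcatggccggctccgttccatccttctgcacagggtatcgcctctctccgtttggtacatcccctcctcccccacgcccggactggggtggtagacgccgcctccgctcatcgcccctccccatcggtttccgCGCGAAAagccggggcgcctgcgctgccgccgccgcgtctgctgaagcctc
SUV39H2: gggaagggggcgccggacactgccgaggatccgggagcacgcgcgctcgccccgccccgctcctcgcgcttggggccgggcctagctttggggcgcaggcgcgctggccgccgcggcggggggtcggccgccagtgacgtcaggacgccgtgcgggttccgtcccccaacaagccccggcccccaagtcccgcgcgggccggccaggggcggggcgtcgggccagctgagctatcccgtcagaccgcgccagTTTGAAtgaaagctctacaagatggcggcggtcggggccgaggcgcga
EZH2: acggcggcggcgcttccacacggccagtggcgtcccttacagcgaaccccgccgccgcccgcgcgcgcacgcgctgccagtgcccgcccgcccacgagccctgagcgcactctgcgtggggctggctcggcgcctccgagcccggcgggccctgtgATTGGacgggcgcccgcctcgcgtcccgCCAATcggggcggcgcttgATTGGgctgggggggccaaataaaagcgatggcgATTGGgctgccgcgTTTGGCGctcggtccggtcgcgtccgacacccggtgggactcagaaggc
KDM6B: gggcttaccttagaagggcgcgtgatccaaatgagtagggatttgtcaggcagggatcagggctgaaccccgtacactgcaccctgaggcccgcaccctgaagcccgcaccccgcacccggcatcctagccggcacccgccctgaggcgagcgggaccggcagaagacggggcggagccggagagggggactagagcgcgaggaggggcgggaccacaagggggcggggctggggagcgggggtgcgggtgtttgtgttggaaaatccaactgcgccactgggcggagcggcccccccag
Across the 55 of 60 genes with a listed promoter, taking the first listed start, an E2F-type word was present in 3 of 21 genes that fell, 3 of 19 that rose and 4 of 15 that did not pass, against 13.2% of all genes tested that have a promoter and 8.69% of all promoters in the table. CCAAT, which is short and frequent, was present in 9 of 21 that fell, 3 of 19 that rose and 4 of 15 that did not pass, against 36.8% of all genes tested and 35.7% of all promoters. A cell cycle homology word was present in 2, 2 and 3 genes of the same groups, against 11.9% of all genes tested and 16.6% of all promoters. Over all genes tested that have a promoter, an E2F-type word was present in 15.0% of those that fell and 11.6% of those that rose. CCAAT was present in 40.2% and 33.9% of the same groups, and a cell cycle homology word in 13.6% and 10.6%. The 4 promoters printed were not picked by a set rule. Most genes that fell held neither an E2F-type word nor a cell cycle homology word. A link between matches and response was not tested. A match is a run of letters in this window and says nothing of binding.

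The methyltransferases of H3K9, the mark of constitutive and facultative heterochromatin, fell in 4 of 6 genes. SUV39H2, which trimethylates H3K9 at heterochromatin, had 7.87, 5.90 and 6.89 CPM in indomethacin cells, against 17.5, 18.3 and 19.1 CPM in control cells (log2 fold change -1.41, SE 0.15, adjusted p = 1.98e-06). Its paralogue SUV39H1 had 1.28, 2.08 and 2.70 CPM in indomethacin cells, against 7.29, 5.96 and 8.66 CPM in control cells (log2 fold change -1.87, SE 0.27, adjusted p = 3.34e-05). EHMT2, also known as G9a, had 2.94, 4.17 and 3.12 CPM in indomethacin cells, against 9.64, 9.07 and 12.9 CPM in control cells (log2 fold change -1.62, SE 0.21, adjusted p = 1.22e-05). The groups of these 3 genes lie well apart, with the highest indomethacin library below the lowest control library each time. EHMT1, which works as a dimer with the EHMT2 protein, moved against it. It had 62.9, 66.1 and 61.6 CPM in indomethacin cells and 43.7, 49.8 and 51.8 CPM in control cells (log2 fold change 0.39, SE 0.11, adjusted p = 0.00526), and this call was lost without the filter on low counts (adjusted p = 0.0729) and without control library 1 (adjusted p = 0.0687). SETDB2 was 9.63 ± 0.550 CPM in indomethacin cells and 12.4 ± 0.562 CPM in control cells (log2 fold change -0.37, adjusted p = 0.0348), a call lost in 7 alternatives other than the 2-fold rule. SETDB1, which is recruited by KRAB zinc finger proteins, averaged 52.0 CPM in indomethacin cells and 49.6 CPM in control cells (log2 fold change 0.07, adjusted p = 0.594), and 948 of its 7093 exonic bases also lie in exons of CERS2 on the opposite strand.

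**Figure D2:**
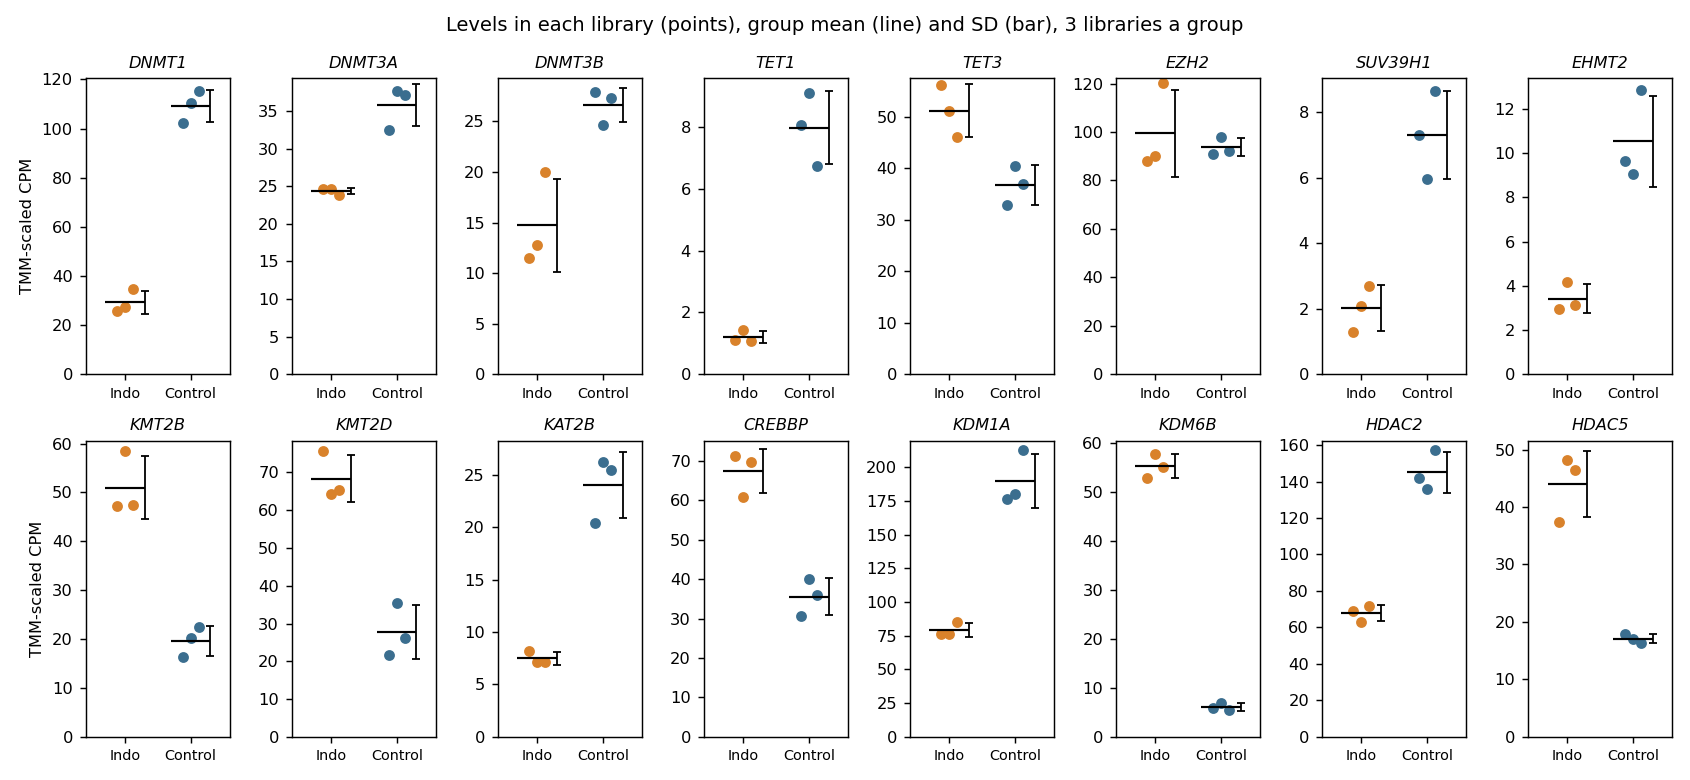
TMM-scaled CPM of 16 enzymes in each library (points), with the group mean (line) and SD (bar, n = 3), indomethacin left of control, each axis from 0. EZH2 is the only gene of the 16 whose groups overlap, with indomethacin library 3 at 120.2 CPM and the others at 88.2 and 90.2 CPM.

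The core of Polycomb repressive complex 2, which methylates H3K27, had 1 gene higher and 1 lower of 4. EZH2, its main catalytic subunit in dividing cells, had 88.2, 90.2 and 120.2 CPM in the indomethacin libraries and 91.0, 97.9 and 92.1 CPM in the control libraries (log2 fold change 0.09, SE 0.12, adjusted p = 0.567); it was singled out after its values were seen. The sign of that difference rests on indomethacin library 3, without which the log2 fold change was -0.080. It also depends on the scale: in TPM, EZH2 averaged 11.4 ± 0.650 in indomethacin cells and 12.5 ± 0.863 in control cells. EZH1, the catalytic subunit found more in resting tissue, had 24.9, 25.3 and 21.6 CPM in indomethacin cells and 19.2, 17.3 and 15.5 CPM in control cells (log2 fold change 0.46, SE 0.13, adjusted p = 0.00638). EED, which binds the mark, had 15.8, 13.2 and 14.3 CPM in indomethacin cells and 21.7, 19.1 and 22.0 CPM in control cells (log2 fold change -0.53, SE 0.13, adjusted p = 0.00263). For EZH1 and EED the groups did not overlap, and the EZH1 call was lost without control library 3 (adjusted p = 0.0575). SUZ12 averaged 55.1 ± 4.64 CPM in indomethacin cells and 65.5 ± 7.45 CPM in control cells (adjusted p = 0.0748), and its pseudogene SUZ12P1 held 1517 counts over the 6 libraries against 7498 for SUZ12, so reads shared by these copies make its level uncertain.

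H3K4 methyltransferases held 6 of the 13 writers that rose: 6 of 7 were higher, none lower, and the class median was 0.94, between 0.79 and 1.06 under the 16 alternatives. KMT2B, which methylates promoters within the MLL family, had 47.1, 58.4 and 47.4 CPM in indomethacin cells, against 16.3, 20.1 and 22.4 CPM in control cells (log2 fold change 1.38, SE 0.14, adjusted p = 1.19e-06). KMT2D, an enhancer enzyme, had 75.5, 64.2 and 65.2 CPM in indomethacin cells, against 21.6, 35.5 and 26.1 CPM in control cells (log2 fold change 1.30, SE 0.16, adjusted p = 6.79e-06). Its paralogue KMT2C had 211, 173 and 187 CPM in indomethacin cells, against 95.7, 112 and 89.5 CPM in control cells (log2 fold change 0.94, SE 0.12, adjusted p = 1.07e-05). In each of these the lowest indomethacin library stood clear of the highest control library. SETD1B, a catalytic subunit of the COMPASS complex, rose by a log2 fold change of 1.09 (adjusted p = 0.000172), KMT2A by 0.57 (adjusted p = 0.00244) and KMT2E, whose SET domain is thought to lack catalytic activity, by 0.47 (adjusted p = 0.002). SETD1A averaged 14.2 ± 1.995 CPM in indomethacin cells and 10.6 ± 2.37 CPM in control cells, a log2 fold change of 0.42 that did not pass (adjusted p = 0.0584) and passed in 5 alternatives.

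Writers of H3K36, H3K79 and H4K20 methylation were divided. DOT1L, the H3K79 methyltransferase, had 20.7, 29.9 and 24.0 CPM in indomethacin cells and 9.1995, 11.5 and 13.2 CPM in control cells (log2 fold change 1.13, SE 0.17, adjusted p = 4.76e-05); 529 of its 11488 exonic bases are shared with PLEKHJ1 on the opposite strand. NSD2 had 85.5, 82.5 and 92.0 CPM in indomethacin cells and 123, 134 and 138 CPM in control cells (log2 fold change -0.61, SE 0.10, adjusted p = 0.000143). NSD1 had 204, 162 and 167 CPM in indomethacin cells and 236, 269 and 244 CPM in control cells (log2 fold change -0.49, SE 0.12, adjusted p = 0.00225). These paralogues, which dimethylate H3K36, were thus lower without overlap, whereas the related NSD3 had 107, 108 and 115 CPM in indomethacin cells and 85.5, 94.7 and 92.7 CPM in control cells (log2 fold change 0.27, SE 0.10, adjusted p = 0.0269). The NSD3 call was lost in 6 alternatives other than the 2-fold rule, 5 of them with a library left out. SETD2, which trimethylates H3K36, averaged 122 ± 6.90 CPM in indomethacin cells and 104 ± 10.4 CPM in control cells (adjusted p = 0.0809), and KMT5A, the H4K20 monomethyltransferase, 49.6 ± 5.58 CPM in indomethacin cells and 50.2 ± 1.34 CPM in control cells (adjusted p = 0.884).

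Of the arginine methyltransferases, PRMT1, which makes most of the asymmetric dimethylarginine in cells, had 104, 119 and 144 CPM in indomethacin cells and 225, 225 and 252 CPM in control cells (log2 fold change -0.94, SE 0.12, adjusted p = 1.88e-05). PRMT5, the main source of symmetric dimethylarginine, had 47.1, 49.4 and 52.3 CPM in indomethacin cells and 63.2, 63.1 and 68.4 CPM in control cells (log2 fold change -0.39, SE 0.10, adjusted p = 0.00433). Neither gene's groups overlapped, although 924 of the 3276 exonic bases of PRMT5 are shared with the antisense gene PRMT5-AS1. CARM1, a coactivator, averaged 27.5 ± 1.64 CPM in indomethacin cells and 29.3 ± 4.21 CPM in control cells and did not pass (adjusted p = 0.549); 891 of its 4420 exonic bases are shared with YIPF2 on the opposite strand.

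Acetyltransferases counted 3 higher and 2 lower of 6. The GCN5-related KAT2B, also known as PCAF, had 8.20, 7.09 and 7.13 CPM in indomethacin cells, against 20.4, 26.3 and 25.4 CPM in control cells (log2 fold change -1.68, SE 0.15, adjusted p = 3.06e-07). KAT2A, or GCN5 itself, had 11.6, 16.6 and 12.1 CPM in indomethacin cells, against 26.3, 25.1 and 26.8 CPM in control cells (log2 fold change -0.96, SE 0.15, adjusted p = 6.69e-05). Both GCN5-type genes were lower in every indomethacin library than in any control library, and the coactivators p300 and CBP were higher. CREBBP, which encodes CBP, had 71.3, 61.0 and 69.8 CPM in indomethacin cells, against 30.7, 39.96 and 35.997 CPM in control cells (log2 fold change 0.92, SE 0.12, adjusted p = 1.54e-05). EP300 had 43.6, 43.7 and 47.5 CPM in indomethacin cells, against 27.2, 31.7 and 27.5 CPM in control cells (log2 fold change 0.64, SE 0.11, adjusted p = 0.000184). Groups were apart for both. KAT6A, of the MYST family, had 93.7, 92.9 and 95.2 CPM in indomethacin cells and 69.0, 83.6 and 82.4 CPM in control cells, and its call (log2 fold change 0.26, SE 0.11, adjusted p = 0.0454) was lost whichever library was left out. KAT5, the TIP60 acetyltransferase, had 9.01, 9.38 and 16.8 CPM in indomethacin cells and 19.96, 14.04 and 15.3 CPM in control cells (log2 fold change -0.49, adjusted p = 0.0668). Indomethacin library 3 stood apart from the other 2 for this gene, and without it the log2 fold change was -0.84 (adjusted p = 0.000807). As 1439 of the 3732 exonic bases of KAT5 lie in exons of RNASEH2C on the opposite strand, its level is uncertain.

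Among lysine demethylases KDM6B rose most. KDM6B (ENSG00000132510, chr17:7834217-7854796), also known as JMJD3, removes H3K27 methylation and is known for its induction by inflammatory stimuli in mouse macrophages. It had 52.8, 57.7 and 55.2 CPM in the indomethacin libraries and 5.97, 6.94 and 5.38 CPM in the control libraries, a 9.04-fold difference (log2 fold change 3.18, SE 0.13, adjusted p = 3.78e-10). Its paralogue KDM6A, the X-linked UTX, had 155, 142 and 157 CPM in indomethacin cells and 176, 159 and 136 CPM in control cells, with overlapping groups (log2 fold change -0.06, SE 0.11, adjusted p = 0.694). Per kilobase of exon, KDM6B stood 16th of the 60 genes in indomethacin cells and 57th in control cells, the longest climb in rank, while DNMT1 stood 50th in indomethacin cells and 16th in control cells.

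KDM1A, or LSD1, which demethylates H3K4 and is a target of inhibitors in leukaemia, had 76.6, 76.3 and 85.2 CPM in indomethacin cells, against 176, 181 and 213 CPM in control cells (log2 fold change -1.26, SE 0.11, adjusted p = 3.47e-07). KDM4A, an H3K9 and H3K36 demethylase, had 19.6, 18.3 and 20.2 CPM in indomethacin cells, against 25.8, 33.9 and 31.2 CPM in control cells (log2 fold change -0.65, SE 0.13, adjusted p = 0.000566). KDM2B, which brings a Polycomb complex to CpG islands, had 14.6, 19.0 and 18.6 CPM in indomethacin cells, against 24.96, 23.8 and 26.7 CPM in control cells (log2 fold change -0.54, SE 0.13, adjusted p = 0.00299). These 3 were the demethylases that fell, each without overlap. KDM2A, the H3K36 demethylase related to KDM2B, had 89.9, 77.8 and 100.1 CPM in indomethacin cells, against 40.6, 48.4 and 43.8 CPM in control cells (log2 fold change 1.01, SE 0.12, adjusted p = 5.81e-06). KDM7A, which acts on H3K9 and H3K27, had 181, 158 and 132 CPM in indomethacin cells, against 70.7, 96.5 and 79.3 CPM in control cells (log2 fold change 0.93, SE 0.14, adjusted p = 5.13e-05). Both rose with every indomethacin library above every control library. Of the KDM5 family, which removes H3K4 methylation, KDM5C rose by a log2 fold change of 0.69 (adjusted p = 0.000109) and KDM5B by 0.33 (adjusted p = 0.0173). KDM5A was at 122 ± 1.80 CPM in indomethacin cells and 116 ± 2.96 CPM in control cells, which did not pass (adjusted p = 0.508). Smaller calls were lost in some alternatives: that of KDM5B was lost in 4 alternatives other than the 2-fold rule, and that of KDM4B, an H3K9 demethylase (log2 fold change 0.31, adjusted p = 0.041) in 8. Its relative KDM4C averaged 51.7 ± 1.62 CPM in indomethacin cells and 45.9 ± 3.71 CPM in control cells and did not pass (adjusted p = 0.176).

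Class I enzymes fell in 3 of 4 genes: HDAC1 and HDAC2, catalytic subunits of the Sin3, NuRD and CoREST corepressors, and HDAC3. HDAC2 had 69.1, 63.0 and 71.9 CPM in indomethacin cells, against 142, 136 and 157 CPM in control cells (log2 fold change -1.09, SE 0.11, adjusted p = 9.02e-07). HDAC3, of the NCoR complex, had 49.5, 48.9 and 60.6 CPM in indomethacin cells, against 77.1, 79.2 and 83.9 CPM in control cells (log2 fold change -0.60, SE 0.11, adjusted p = 0.00038). HDAC1 had 141, 150.4 and 159.8 CPM in indomethacin cells, against 175, 180.4 and 208 CPM in control cells (log2 fold change -0.32, SE 0.11, adjusted p = 0.0192). No indomethacin library reached the lowest control library for any of the 3, but the smaller HDAC1 call was lost with upper-quartile scaling (adjusted p = 0.103) and in 3 other alternatives besides the 2-fold rule. HDAC8 averaged 14.7 ± 0.303 CPM in indomethacin cells and 11.7 ± 3.02 CPM in control cells and did not pass (adjusted p = 0.105).

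Class II and IV deacetylases, of which the class IIa members shuttle between nucleus and cytoplasm, were higher in 4 of 6 genes and lower in none; 1 of the 4 was HDAC9, which passed the filter on low counts only through the libraries where it is high. HDAC5 had 37.5, 48.2 and 46.5 CPM in indomethacin cells, against 17.8, 17.02 and 16.2 CPM in control cells (log2 fold change 1.37, SE 0.12, adjusted p = 4.88e-07). HDAC6, the tubulin deacetylase, had 39.4, 56.2 and 50.1 CPM in indomethacin cells, against 22.8, 29.7 and 26.4 CPM in control cells (log2 fold change 0.88, SE 0.14, adjusted p = 0.00011). HDAC4 averaged 13.5 ± 2.77 CPM in indomethacin cells and 6.67 ± 1.52 CPM in control cells (log2 fold change 1.02, SE 0.20, adjusted p = 0.00056). The groups of all 3 were apart. HDAC9 (ENSG00000048052, chr7:18086949-19002416) was nearly silent in control cells, with 3, 1 and 1 counts in the control libraries, and had 54, 57 and 59 counts in the indomethacin libraries. After scaling for depth the ratio of these sums was 38.3, with a 95% interval of 16.1 to 119.6 that covers counting error only. Even with indomethacin HDAC9 stood 59th of the 60 genes per kilobase. HDAC7 averaged 33.6 ± 5.399 CPM in indomethacin cells and 35.03 ± 2.03 CPM in control cells (adjusted p = 0.709), and HDAC11, the class IV enzyme, 14.3 ± 0.104 CPM in indomethacin cells and 14.9 ± 0.606 CPM in control cells (adjusted p = 0.693).

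The sign of the median of 8 classes was the same under all 16 alternatives. The 2-fold rule is 1 of them and leaves every median as it was. Class medians stayed below 0 for DNA methyltransferases (-1.15 to -0.73), H3K9 methyltransferases (-0.99 to -0.77), arginine methyltransferases (-0.49 to -0.27) and class I deacetylases (-0.56 to -0.34). They stayed above 0 for H3K4 methyltransferases, for class II and IV deacetylases (0.77 to 1.07), for TET dioxygenases (0.099 to 0.32) and for lysine demethylases (0.13 to 0.36). In the main fit the TET median is the value of TET2, which did not pass the test, while TET1 fell. The direction of the summed TET and demethylase levels depended on the scale. The class II and IV median includes HDAC9, which passed the filter only through the indomethacin libraries. The median of the Polycomb core was -0.08 and changed sign in at least 1 alternative (range -0.19 to 0.04), as did those of the H3K36, H3K79 and H4K20 writers (-0.0028 to 0.22) and of the acetyltransferases (-0.30 to 0.00075). Upper-quartile factors moved the median of all genes tested to 0.16, against 0.04 with TMM factors, and the class medians moved up with it.

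Writers were set against erasers by summed level per length. Writers summed to 249, 232 and 211 TPM in the indomethacin libraries and 313, 334 and 313 TPM in the control libraries. Erasers summed to 257, 244 and 212 TPM in the indomethacin libraries and 269, 288 and 279.7 TPM in the control libraries. The ratio of writers to erasers was 0.967, 0.9497 and 0.993 in indomethacin cells and 1.163, 1.1599 and 1.12 in control cells, and the groups did not overlap. Which side of 1 the control libraries lay on rested on PRMT1: with it left out of the writers, an alternative chosen after seeing the data, the ratio was 0.849, 0.818 and 0.839 in indomethacin cells and 0.907, 0.9197 and 0.863 in control cells. This ratio does not depend on scaling between libraries, whereas the sums do. As TMM-scaled CPM per kilobase, writers were 184 ± 8.81 in indomethacin cells and 223 ± 8.53 in control cells, and erasers were 189.8 ± 5.66 in indomethacin cells and 195 ± 10.8 in control cells (SD, n = 3 each).

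Classes contributed unequally to these sums. Arginine methyltransferases had the largest summed level of the writer classes in control cells, and stood at 57.1 to 59.6 TPM in the indomethacin libraries and 106 to 110.4 TPM in the control libraries. PRMT1 alone was the most abundant of the 60 genes per kilobase in control cells, at 48.9 TMM-scaled CPM per kilobase, and ranked second in indomethacin cells, at 25.5, behind HDAC1. Class I deacetylases stood at 63.7 to 71.9 TPM in the indomethacin libraries and 103 to 111 TPM in the control libraries, while class II and IV deacetylases stood at 19.5 to 25.2 TPM in the indomethacin libraries and 15.8 to 17.7 TPM in the control libraries. H3K4 methyltransferases stood at 25.8 to 35.05 TPM in the indomethacin libraries and 17.3 to 23.3 TPM in the control libraries. Histone methyltransferases with their partners over lysine demethylases gave a ratio of 1.42 to 1.496 in the indomethacin libraries and 1.82 to 1.87 in the control libraries. Acetyltransferases summed to 23.4 to 26.9 TPM in the indomethacin libraries and 32.9 to 35.6 TPM in the control libraries. Their groups were also apart as TMM-scaled CPM per kilobase, at 19.3 to 21.6 with indomethacin and 23.4 to 24.2 in control libraries. On that scale the H3K36, H3K79 and H4K20 writers overlapped. Acetyltransferases over deacetylases gave 0.272 to 0.288 in the indomethacin libraries and 0.260 to 0.287 in the control libraries, and these groups overlapped. Summed demethylases were 136 ± 15.5 TPM in indomethacin cells and 143 ± 6.68 TPM in control cells, but 108 ± 1.52 in indomethacin cells and 100.2 ± 5.51 in control cells as TMM-scaled CPM per kilobase, so the direction of their sum depends on the scale.

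**Figure D3:**
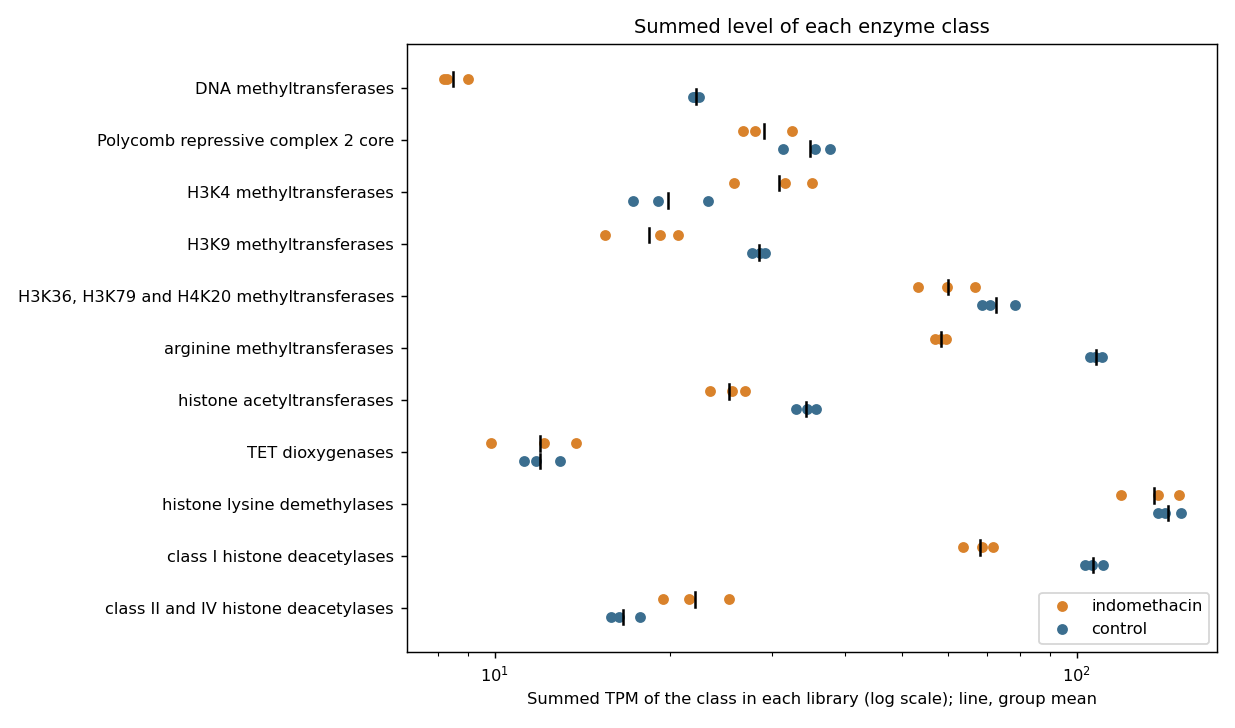
Summed TPM of each of the 11 enzyme classes in each library on a log scale (points), with the group mean (line), indomethacin above control. DNA, H3K9 and arginine methyltransferases, H3K36, H3K79 and H4K20 writers, acetyltransferases and class I deacetylases are lower with indomethacin without overlap. H3K4 methyltransferases and class II and IV deacetylases are higher without overlap, and the Polycomb core, TET and demethylase groups overlap.

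Paralogues were compared by their ratio within each library, which hardly depends on scaling between libraries (0.5 was added to each TMM-scaled count). The log2 ratio of KDM6A to KDM6B was 1.55, 1.30 and 1.51 in the indomethacin libraries and 4.88, 4.52 and 4.66 in the control libraries, a difference of -3.23. EHMT1 to EHMT2 gave 4.41, 3.98 and 4.29 in the indomethacin libraries and 2.18, 2.45 and 2.01 in the control libraries, a difference of 2.01. KDM2A to KDM2B gave 2.62, 2.04 and 2.43 in the indomethacin libraries and 0.70, 1.02 and 0.71 in the control libraries, a difference of 1.55. In these 3 pairs the groups lie far apart. Smaller differences without overlap were those of KMT2A to KMT2B (-0.81), HDAC1 to HDAC2 (0.78), SETD1A to SETD1B (-0.70), KAT2A to KAT2B (0.70), KMT2C to KMT2D (-0.38), EP300 to CREBBP (-0.28) and KDM5A to KDM5B (-0.26). Each of these 10 of 16 pairs gave p = 0.1 in a two-sided exact permutation test, the smallest that 3 against 3 libraries can give, and 0.16 after Benjamini-Hochberg adjustment over the 16 pairs. The other 6 pairs overlapped: EZH2 to EZH1, SUV39H1 to SUV39H2, DNMT3A to DNMT3B, NSD2 to NSD1, HDAC4 to HDAC5 and TET2 to TET3, with exact p between 0.2 and 0.5. For single genes, the groups did not overlap in 67.0% of all genes tested. Ratios of gene pairs outside these 16 were not computed, so the count of 10 is a description and not a trait of these enzymes.

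**Figure D4:**
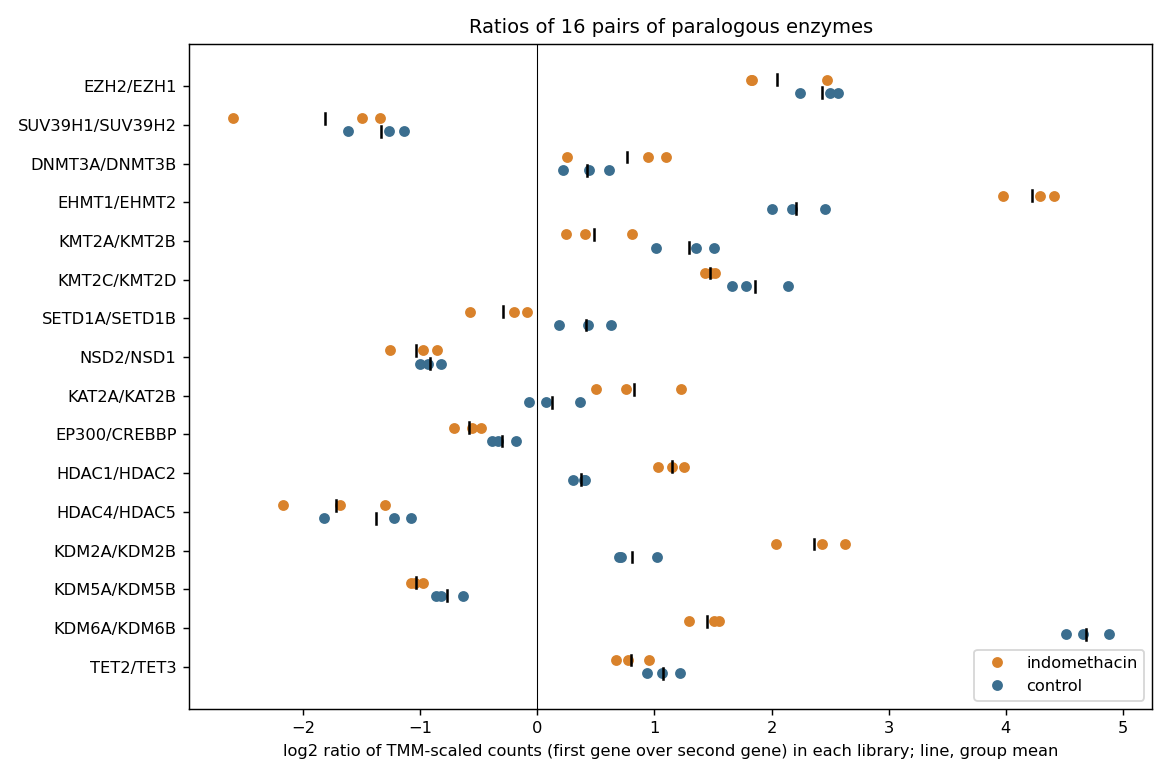
The log2 ratio of TMM-scaled counts of 16 pairs of paralogous enzymes in each library (points), first gene over second, with the group mean (line), indomethacin above control. KDM6A to KDM6B, EHMT1 to EHMT2 and KDM2A to KDM2B are the pairs with the widest gaps between the groups.

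The genes that rose were mostly those with the longer exonic sequence. This length is the deposited gene length over the annotated exons of a gene, not the length of a single transcript. Of the 30 genes with the longer exonic sequence (10245 to 53322 bases), 17 rose and 6 fell, with a median log2 fold change of 0.32. Of the 30 shorter genes (3233 to 9949 bases), 7 rose and 15 fell, with a median of -0.34. The Spearman correlation of exonic length with log2 fold change was 0.43 across these 60 genes and -0.07 across the 17200 genes tested; genes are not independent replicates, and they share libraries and class. Exceptions stood on either side: DNMT1 and HDAC2, with 15379 and 15333 exonic bases, fell, and KDM6B, with 7392 bases, rose. With an offset for the trend of fold change with length over all genes, 24 of the 60 were higher and 19 lower. This offset follows all genes tested, where the correlation was -0.07, so it cannot tell whether length matters within the 60.

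**Figure D5:**
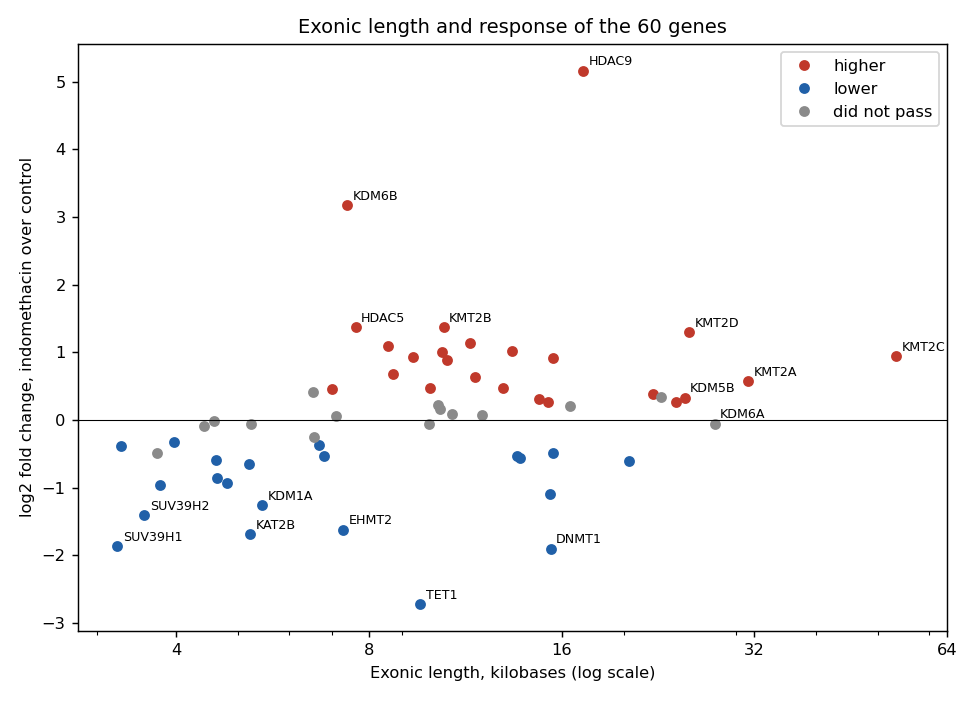
Exonic length in kilobases (log scale) against log2 fold change, indomethacin over control, for the 60 genes, coloured by the edgeR call. Most genes at the short end lie below 0, and the longest by exonic sequence, KMT2C and KMT2A, lie above it. DNMT1 has a long exonic sequence and fell.

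Proteins that work with these enzymes were counted in lists of their own. These counts are a description, to be read beside 30.6% higher and 31.0% lower over all genes tested. Of 11 tested genes that read or maintain DNA methylation, 6 fell and 1 rose. UHRF1, which brings DNMT1 to replicated DNA, averaged 2.08 ± 0.614 CPM in indomethacin cells and 49.7 ± 4.34 CPM in control cells (log2 fold change -4.59, adjusted p = 2.76e-10). The remodeller HELLS (log2 fold change -3.11, adjusted p = 2.37e-10) and its partner CDCA7 (-2.75, adjusted p = 1.73e-09) fell too, and the methyl-CpG binding protein MBD1 rose (1.03, adjusted p = 2.67e-06). DNMT3L was below the filter. The proliferation markers fell in the same libraries, with a median log2 fold change of -3.04, and their part in these changes was not tested.

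Polycomb partners counted 2 higher and 7 lower of 17. The histone chaperone RBBP7, a shared subunit of Polycomb and deacetylase complexes, fell (log2 fold change -1.85, adjusted p = 7.31e-09), as did the chromodomain protein CBX2 (-1.51, adjusted p = 2.85e-07), whereas PHF1, an accessory subunit of Polycomb repressive complex 2, rose (1.86, adjusted p = 5.33e-07). Of 10 partners of the H3K4 methyltransferases 1 was higher and 4 were lower. ASH2L, a core subunit needed for the activity of these enzymes, averaged 19.0 ± 1.44 CPM in indomethacin cells and 41.0 ± 1.59 CPM in control cells (log2 fold change -1.11, adjusted p = 1.28e-06), and WDR5, DPY30 and PAXIP1 fell by 0.88, 0.66 and 0.56 on the log2 scale. NCOA6, a subunit of the KMT2C and KMT2D complexes, was the 1 that rose (0.54, adjusted p = 0.00334).

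Deacetylase corepressor partners were divided, with 9 higher and 8 lower of 20. RCOR1, the CoREST scaffold of KDM1A, rose (log2 fold change 1.22, adjusted p = 4.37e-07) where KDM1A fell. The NuRD subunits CHD3 (-1.64, adjusted p = 7.39e-07) and MTA2 (-1.02, adjusted p = 2.52e-06) fell. Acetyltransferase complex partners counted 6 higher and 6 lower of 23, or 26.1% each way, under the shares over all genes tested. BRPF3 (0.96, adjusted p = 3.71e-06) and TADA2B (0.85, adjusted p = 2.65e-05) were higher. TADA2A (-1.06, adjusted p = 1.17e-05) and MEAF6 (-0.90, adjusted p = 3.8e-05) were lower. Among 26 further writers and erasers outside the 60, 9 were higher and 12 lower. The H3K4 demethylase KDM1B averaged 31.1 ± 1.34 CPM in indomethacin cells and 9.56 ± 0.889 CPM in control cells (log2 fold change 1.70, adjusted p = 6.6e-08), opposite in direction to KDM1A. JMJD1C rose (1.22, adjusted p = 2.85e-07), and the methyltransferases SMYD3 (-1.43, adjusted p = 2.22e-07) and SETMAR (-1.99, adjusted p = 1.24e-06) fell.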

How the data were processed

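Total RNA was sequenced from AGS cells after ribosomal RNA depletion with a stranded kit, as paired reads on a NovaSeq, per the labels' protocols. FastQC 0.11.7, cutadapt 1.16, HISAT2 2.1.0, SAMtools 1.19, featureCounts, DESeq2 and build hg38 are named in the submitters' processing notes, without order or settings. The authors deposited raw counts per gene, 1 file for each library. Of the 60607 lines of a file, 3, those of 1 broken gene, were left out. Strand setting, handling of multi-mapping reads and annotation release are not given in the sources used here, so genes with copies or overlaps are uncertain; exons of 31 of the 60 genes overlap another gene with counts, 27 on the opposite strand. The strand field is cut short in long entries, so its first entry was used.

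A gene name table gave symbols for 60462 identifiers. Counts were used as deposited. Genes were filtered with filterByExpr, scaled by TMM and tested with edgeR 4.0.16 (R 4.3.3; glmQLFit and glmQLFTest, group only), with Benjamini-Hochberg adjustment over 17200 genes and a threshold of 0.05. CPM are TMM-scaled. TPM and levels per kilobase were computed from counts and the deposited gene lengths, which cover the annotated exons of a gene. These lengths can exceed those of the transcripts present, so comparisons of level between genes are approximate. No pair of replicates was within sampling noise (chi-square over its degrees of freedom 7.91 to 25.9). Same-numbered libraries were not paired (correlation of deviations 0.0276, 0.00658 and 0.165). The test was also run on simulated counts with known changes in a small share of genes and the same variability for all genes. Most genes tested changed in these data, so that run does not check the test in this setting.

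The members, lists, classes and tests were chosen with earlier results of these data known. Values in every library are given for up to 3 genes of each class with the smallest adjusted p in each direction, and for both of a pair that differed by 1 or more on the log2 scale; of partner lists, up to 4 with the smallest adjusted p and any that moved against the list. Some partner and reader genes that this rule would name are counted but not reported here by name. Alternatives were limma-voom (limma 3.58.1), DESeq2 1.42.0, RLE and upper-quartile factors, library sizes without mitochondrial genes, no filter, 1 CPM in 3 libraries, a length offset, a replicate block, each library left out, a 2-fold rule, other TPM denominators and another pseudocount for ratios. TMM-scaled CPM per kilobase and the sum of writers without PRMT1 were added after seeing the data.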

Additional observations from a re-analysis of the deposited data

How the results depend on the processing

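Of 960 alternative values for the 60 genes, 852 kept direction and side of the threshold, 71 lost the call, 21 gained it and 16 changed sign, the last only in genes that did not pass the test. Of the 45 calls, 37 held in every alternative except the 2-fold rule; the others were EZH1, SETDB2, EHMT1, NSD3, KAT6A, KDM4B, KDM5B and HDAC1. The rule of 2-fold or more left 2999 genes higher and 2676 lower in all, of the 60 genes 9 and 8, of writers 4 and 5 and of erasers 5 and 3. With a library left out, all genes higher ran from 4635 to 5139 and lower from 4938 to 5471, members higher from 19 to 23 and lower from 19 to 22, writers higher from 10 to 13 and lower from 13 to 15, and erasers higher from 9 to 11 and lower from 6 to 7. The log2 ratio of summed writer levels was -0.47 in TPM, -0.64 over nuclear-encoded genes and -0.28 as CPM per kilobase; that of erasers was -0.23, -0.39 and -0.037. The log2 ratio of indomethacin to control for writers over erasers was -0.24, and -0.10 without PRMT1. With no filter EZH2 was -0.020, SETDB1 -0.039 and KDM5A -0.030. With upper-quartile factors KMT5A was 0.096, CARM1 0.027, KDM6A 0.060, HDAC7 0.058 and HDAC11 0.056; with the length offset KMT5A was 0.084, CARM1 0.013 and HDAC11 0.040; with 1 CPM in 3 libraries KMT5A was 0.027. With a library left out EZH2 ran from -0.080 to 0.15, SETDB1 from -0.040 to 0.096, KMT5A from -0.10 to 0.042 and HDAC7 from -0.18 to 0.035. The cause was not tested. The replicate block gave 5249 genes higher and 5352 lower, of the 60 genes 24 and 22; it took the KDM4B call (adjusted p = 0.0523) and gave calls for SETD1A (adjusted p = 0.0187) and KAT5 (adjusted p = 0.0347). No label ties equal numbers together, and 1 of 3 indomethacin libraries correlated best with its own number. With 3 libraries a group, small changes are not resolved: KMT5A, KDM6A and HDAC11 are not shown to be equal between groups. HDAC9 rests on 5 control counts.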

Other observations

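Readers of the marks were tested beside their writers, in a list chosen with earlier results known: of 12 readers of acetyl and methyl lysine, 3 were higher and 6 lower in indomethacin cells. The shares over all genes tested were 30.6% higher and 31.0% lower. All 3 heterochromatin proteins that bind methylated H3K9 fell. CBX5 averaged 22.4 ± 6.45 CPM in indomethacin cells and 136 ± 12.3 CPM in control cells (log2 fold change -2.60, edgeR adjusted p = 1.93e-08), CBX3 fell by 1.09 and CBX1 by 1.06 on the log2 scale. ATAD2, a bromodomain protein of dividing cells, fell by 2.18 (adjusted p = 9.36e-09). The bromodomain proteins BRD2 (log2 fold change 0.55, adjusted p = 0.000362) and BRD1 (0.77, adjusted p = 0.000152) rose. Proliferation markers fell in the same libraries, with a median log2 fold change of -3.04, and their part in these changes was not tested.

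Genes that supply the cofactors of these enzymes counted 2 higher and 7 lower of 12 tested. The shares over all genes tested were 30.6% higher and 31.0% lower. ACLY, which makes acetyl-CoA from citrate, averaged 80.7 ± 4.70 CPM in indomethacin cells and 253 ± 24.2 CPM in control cells (log2 fold change -1.65, adjusted p = 2.49e-08). ACSS2, which makes it from acetate, fell by 0.87 (adjusted p = 5.91e-05). The isocitrate dehydrogenases, which make the 2-oxoglutarate used by TET and JmjC enzymes, moved in opposite directions: mitochondrial IDH2 averaged 9.12 ± 1.83 CPM in indomethacin cells and 41.0 ± 4.03 CPM in control cells (log2 fold change -2.17, adjusted p = 3.83e-08), and cytosolic IDH1 averaged 616 ± 38.3 CPM in indomethacin cells and 376 ± 28.4 CPM in control cells (log2 fold change 0.71, adjusted p = 6.9e-05). AHCYL2 rose by 1.06 on the log2 scale (adjusted p = 8.4e-06). MAT2A, which makes the methyl donor S-adenosylmethionine, averaged 115 ± 22.4 CPM in indomethacin cells and 114 ± 3.65 CPM in control cells and did not pass (adjusted p = 0.941). ACSS1 was below the filter on low counts.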
